A study of Rattus norvegicus with 7 samples.

Results

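The postsynaptic density is the protein meshwork beneath the membrane of excitatory synapses, and the genes described here encode its scaffolds, its calcium-dependent kinase and phosphatase, and their partners in the dendritic spine. The list held 34 genes chosen by function, and 32 of them had a row in the table of each tissue (16223 symbols in hippocampus and 16183 in hypothalamus). Iqsec1 and Iqsec2, which encode exchange factors for Arf GTPases, enter below with their promoters only, and their levels were not analysed here. Where a symbol had several loci, the locus with the highest mean was taken. Of the 32 genes, 31 could be compared between the tissues, among 10736 symbols compared in all, because Camk2a carried a failed status in 1 hypothalamus library.

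The samples were hippocampus and hypothalamus of male Sprague Dawley rats, 2 months old at the start, that ate an omega-3 fatty acid diet with docosahexaenoic acid (DHA) for 6 weeks. There were 4 libraries of hippocampus (DHA_hippocampus replicates 1 to 4) and 3 of hypothalamus (DHA_hypothalamus replicates 1 to 3), each of poly-A RNA. Both groups received DHA, and rats on chow were not analysed here, so the values show levels under this diet and no effect of it. The labels do not say whether a rat gave both tissues.

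At an excitatory synapse, glutamate opens NMDA receptors, and the calcium that enters binds calmodulin. Calmodulin then activates the kinase CaMKII and the phosphatase calcineurin, which set the strength of the synapse by acting on AMPA receptors. The scaffolds hold these parts in layers: DLG proteins bind the receptors, DLGAP proteins bind DLG, SHANK proteins bind DLGAP, and HOMER proteins tie SHANK to metabotropic glutamate receptors. Pyramidal cells of the hippocampus carry dense arrays of such spines, whereas many hypothalamic neurons release peptides or GABA.

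Levels are given as deposited, in FPKM (fragments per kilobase of transcript, relative to the fragments of the library), which is a value per length and allows levels of different genes to be set side by side. Each tissue came from its own table, so tissue and table cannot be told apart, and no test was made between them. For the comparison, the symbols in both tables were brought to the same sum, 1000000, in all libraries, and a gene was called higher in a tissue when all its libraries lay above all of the other tissue and the means of log2(rescaled FPKM + 1) differed at least 2-fold. Differences are on that scale, hippocampus minus hypothalamus, with a standard error (SE) from the spread of the libraries. In bulk tissue, fewer cells of a type and less RNA per cell cannot be told apart.

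Summed FPKM ranged from 370020 to 391349 in hippocampus and from 443335 to 471484 in hypothalamus, and FPKM carries no read depth. Among the 34 genes, 12 had more than 1 locus in at least 1 table, and at several of these replicate 1 of a tissue was near 0 at a locus that was high in the other replicates. Low FPKM values of the other replicates stood in a common ratio at 21.0% to 26.2% of loci per pair of libraries of a tissue, but at 4.20% to 5.72% in pairs with replicate 1. Replicate 1 of both tissues therefore stood apart in its values, and several results are also given without it or with the locus that is highest in it. Defining markers matched the labelled tissues. The vesicular glutamate transporter gene Slc17a7 and 5 further genes of telencephalic excitatory neurons summed to between 918 and 1270 FPKM in hippocampus and to at most 33.6 FPKM in hypothalamus, while 8 hypothalamic neuron genes summed to at least 5611 FPKM in hypothalamus and to at most 10.2 FPKM in hippocampus.

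Of the 31 genes, 22 were called higher in hippocampus, where 14.5% of all symbols compared were, and 0 were called higher in hypothalamus, where 13.4% were. Without the fold minimum, 24 genes had every hippocampus library above every hypothalamus library, against 28.2% of all symbols, and 1 gene, Camk2d, had the opposite order, against 24.4%. As deposited, 21 genes lay towards hippocampus without overlap, against 19% of all symbols, and 3 towards hypothalamus (Camk2d, Camk2g and Dlg1), against 35.2%. Centred on pan-neuronal genes, 23 lay towards hippocampus without overlap, against 25.3% of all symbols, and 0 towards hypothalamus, against 19.5%. The median difference of the 31 genes was 1.48, and that of all symbols was 0.05. The scaling moved the count: with FPKM as deposited, 17 genes were called, against 8.64% of all symbols, the median of the 31 was 1.10 and that of all symbols was −0.21. These 17 genes were called under each of 5 scalings (equal sums, as deposited, upper quartile, median ratio, and centring on pan-neuronal genes). Without replicate 1 of both tissues, 21 genes were called, against 18% of all symbols.

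**Figure D1:**
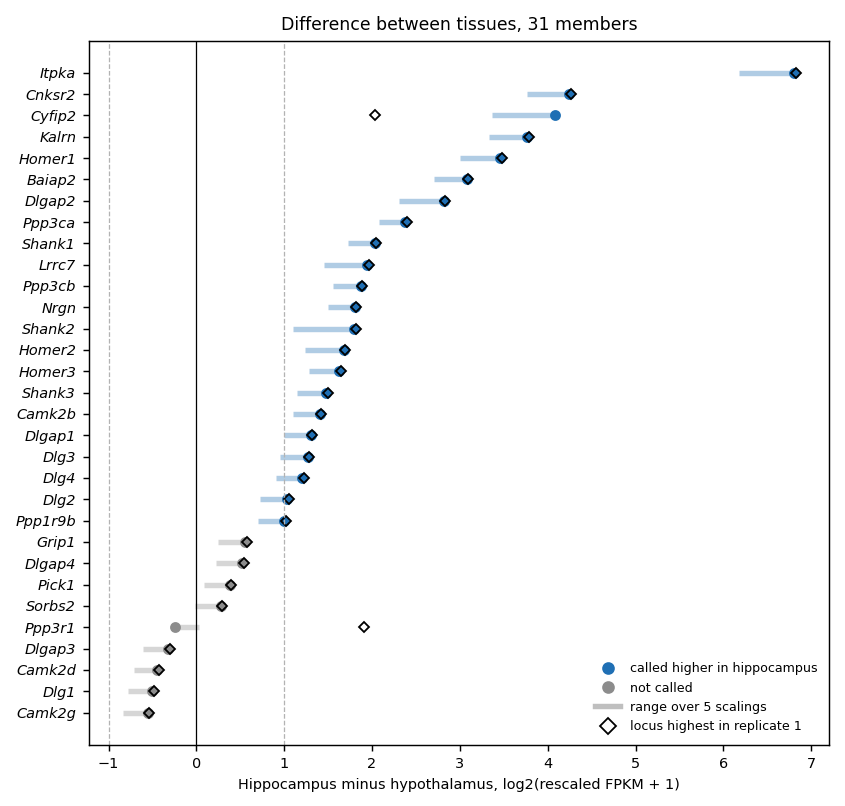
Difference between tissues for each of the 31 genes (horizontal axis, log2 of rescaled FPKM + 1, hippocampus minus hypothalamus). Filled points are the values described in the text, bars span 5 scalings, diamonds use the locus highest in replicate 1, and dashed lines mark a 2-fold difference. The genes run from −0.55 for Camk2g to 6.81 for Itpka, and the diamonds of Cyfip2 and Ppp3r1 lie far from their filled points.

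Promoter sequences of 27 of the 34 genes were matched by symbol to RefSeq (build GRCr8), as the 250 bases before the annotated start. Dlg3, Dlgap2, Shank1, Shank2, Homer2, Itpka and Sorbs2 had no entry. The 3 sequences below are examples and do not stand for the other genes. Baiap2 and Homer1 lay towards hippocampus, though Cnksr2, Cyfip2 and Kalrn lay further. Camk2d lay towards hypothalamus, by −0.71 to −0.44 over the 5 scalings. Short motifs were searched on both strands and are in capitals. GGGCGG is the GC box. The TATA box was searched as TATAAA. The core of the cAMP response element was searched as TGACG. An E-box was searched as CAGCTG. The sequences are Baiap2 at chr10:105721306-105721555 on the plus strand, Homer1 at chr2:26278762-26279011 on the plus strand and Camk2d at chr2:217698301-217698550 on the plus strand.
Baiap2: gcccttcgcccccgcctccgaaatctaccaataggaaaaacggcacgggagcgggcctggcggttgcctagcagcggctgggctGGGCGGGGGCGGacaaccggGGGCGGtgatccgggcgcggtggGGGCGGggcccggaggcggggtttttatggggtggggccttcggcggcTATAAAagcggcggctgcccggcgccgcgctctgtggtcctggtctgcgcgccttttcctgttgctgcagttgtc
Homer1: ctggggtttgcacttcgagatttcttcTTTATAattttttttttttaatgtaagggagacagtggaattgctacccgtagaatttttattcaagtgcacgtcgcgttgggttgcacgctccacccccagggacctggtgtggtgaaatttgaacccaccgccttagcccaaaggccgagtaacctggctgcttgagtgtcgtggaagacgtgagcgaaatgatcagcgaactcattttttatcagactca
Camk2d: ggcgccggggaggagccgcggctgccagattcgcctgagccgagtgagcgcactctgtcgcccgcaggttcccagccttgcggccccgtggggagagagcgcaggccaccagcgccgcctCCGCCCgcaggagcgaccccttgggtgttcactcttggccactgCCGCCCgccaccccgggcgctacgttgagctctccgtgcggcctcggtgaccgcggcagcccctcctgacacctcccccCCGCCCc

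The Baiap2 window held 4 GGGCGG sites and 1 TATAAA, the Camk2d window held 3 GGGCGG sites, and the Homer1 window held a TATAAA on the reverse strand only. GC content was 70.8%, 75.2% and 46.4% for Baiap2, Camk2d and Homer1. Over the 27 windows, Iqsec1 and Iqsec2 included, GGGCGG occurred in 14 and TGACG in 3, or 51.9% and 11.1%, and over 19005 protein-coding promoters the shares were 40.3% and 21.1%. TATAAA occurred in 7.41% of the 27 and in 12.3% of all, and CAGCTG in 14.8% and 11.9%. Among the 16 windows of genes called higher in hippocampus, 43.8% held GGGCGG, and among the 8 of the other genes compared, 62.5% did. A match is a run of letters in this window and was not tested as a site.

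CaMKII is a ring of kinase subunits, and its alpha and beta subunits, from Camk2a and Camk2b, are the forms known from forebrain neurons. Camk2a was the highest of the 32 genes in hippocampus, at 1559, 1987, 1550 and 1732 FPKM in replicates 1 to 4. In hypothalamus it was listed at 76.4 and 122 FPKM in replicates 1 and 2, and at 158 FPKM with a failed status in replicate 3. Every hippocampus library thus lay far above every hypothalamus library. With replicate 3 of hypothalamus left out, the difference was 4.38, or 20.9-fold, and with it kept the difference was 4.18. A second hypothalamic locus of Camk2a was listed at 0.0117, 30.3 and 32.4 FPKM in replicates 1 to 3 and is not part of these differences.

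The beta subunit gene Camk2b read 282, 275, 221 and 176 FPKM in hippocampus and 111, 92.9 and 125 FPKM in hypothalamus. The tissues did not overlap, and the difference was 1.40 (SE 0.19). Camk2b had a second hypothalamic locus at 0.0299, 109 and 154 FPKM in replicates 1 to 3, and with its loci summed the tissues overlapped and the difference fell to 0.61. The call for Camk2b was thus lost when the second locus was added, and it was kept in the other 20 alternatives that could be computed.

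Camk2d and Camk2g encode the delta and gamma subunits, which are found in many tissues. Camk2d read 16.7, 10.4, 18.1 and 18.3 FPKM in hippocampus and 28.4, 24.3 and 25.5 FPKM in hypothalamus, where all libraries were higher, with a difference of −0.44 (SE 0.21). Camk2g read 85.4, 49.8, 44.9 and 36.6 FPKM in hippocampus and 91.8, 90.5 and 96.6 FPKM in hypothalamus. After rescaling the Camk2g libraries overlapped, with a difference of −0.55 (SE 0.26). A second hippocampal locus of Camk2g was at 0.127 FPKM in replicate 1 and between 43.5 and 52.6 FPKM elsewhere, and with loci summed the sign of the Camk2g difference turned to 0.20.

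The makeup of the CaMKII family was then read within each library, as the share of each gene in the summed FPKM of the family, a quantity that does not depend on the scale of the library. Camk2a made up 84.6% ± 3.32 of the family in hippocampus (SD, n = 4) and 24.8% and 37.0% in the hypothalamus libraries with an accepted status. Camk2b took 11.8% ± 2.26 in hippocampus and 28.2% to 36.1% in hypothalamus. Camk2g took 1.87% to 4.39% in hippocampus and 27.5% to 29.8% in hypothalamus, and Camk2d 0.446% to 0.986% against 7.38% to 9.22%. The shares of all 4 subunits were free of overlap between the tissues, also with loci summed.

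**Figure D2:**
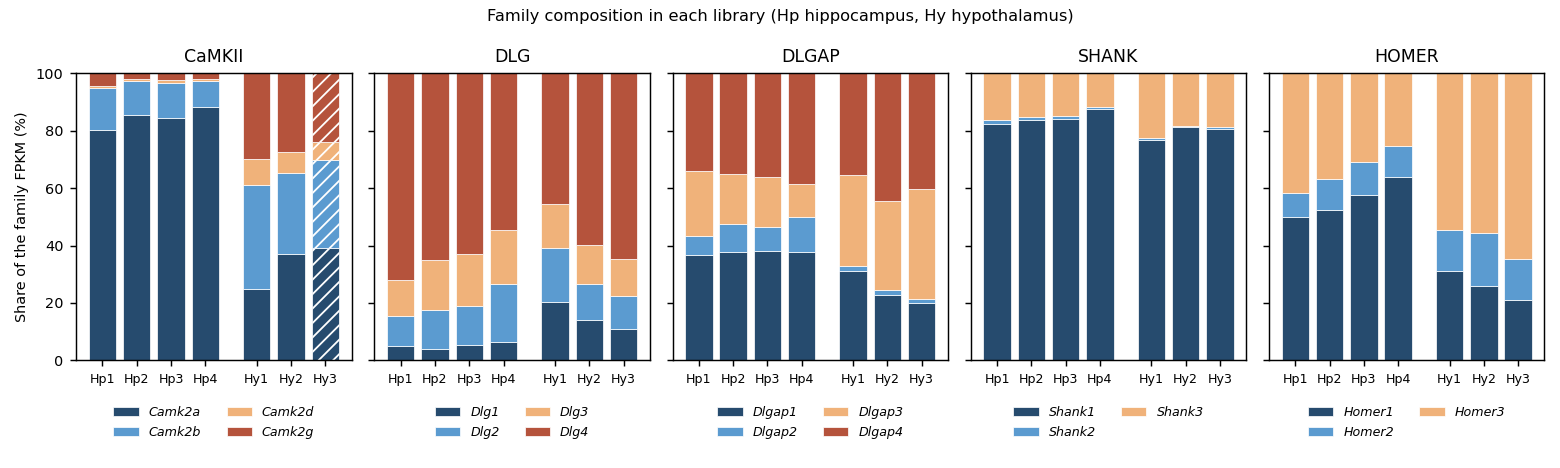
Share of each gene in the summed FPKM of its family (vertical axis, percent), in each hippocampus (Hp) and hypothalamus (Hy) library, using the highest-mean locus of each symbol; hatching marks the library with a failed status for Camk2a. Camk2a fills at least 80.3% of the CaMKII bar in every hippocampus library and at most 37.0% in the unhatched hypothalamus bars, and Homer1 and Homer3 change places between the tissues.

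The DLG genes encode the membrane-proximal scaffolds with PDZ domains, and Dlg4 encodes PSD-95, the main one of mature excitatory synapses. Dlg4 read 279, 258, 212 and 194 FPKM in hippocampus and 94.9, 123 and 164 FPKM in hypothalamus. All hippocampus libraries were higher, with a difference of 1.21 (SE 0.24), but the Dlg4 call was lost with FPKM as deposited (0.90) and when replicate 1 of both tissues was left out. Dlg3 read 49.3 to 67.9 FPKM in hippocampus and 28.2 to 32.5 FPKM in hypothalamus, a difference of 1.27 (SE 0.11), and its call too was lost as deposited (0.96).

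Dlg2 read 39.6, 54.7, 45.5 and 72.0 FPKM in hippocampus and 39.1, 25.5 and 29.2 FPKM in hypothalamus, so that the lowest hippocampus library barely exceeded the highest hypothalamus library. Its difference of 1.04 (SE 0.26) was past the 2-fold minimum in 1 of 5 scalings. Dlg1, which encodes a DLG scaffold also present in epithelia, read 15.3 to 22.4 FPKM in hippocampus and 28.0 to 42.5 FPKM in hypothalamus. As deposited, every hypothalamus library of Dlg1 was higher, whereas the rescaled values overlapped, with a difference of −0.50 (SE 0.24). Within the DLG family, Dlg1 took 3.86% to 6.32% in hippocampus and 11.0% to 20.4% in hypothalamus, and the shares of Dlg2, Dlg3 and Dlg4 overlapped.

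DLGAP proteins link DLG to SHANK. Dlgap2 differed most, at 14.5, 16.3, 13.6 and 16.9 FPKM in hippocampus and 2.04, 2.26 and 2.62 FPKM in hypothalamus, a difference of 2.82 (SE 0.09). Dlgap1 read 51.5 to 77.9 FPKM in hippocampus and 28.8 to 33.0 FPKM in hypothalamus, a difference of 1.30 (SE 0.13), which as deposited was 0.99 and not called. A second hippocampal locus of Dlgap1 read 0, 17.1, 1.71 and 48.4 FPKM, and with loci summed the difference was 1.58. Dlgap4 read 52.6 to 72.6 FPKM and 36.5 to 66.7 FPKM, and Dlgap3 read 48.1, 28.9, 28.0 and 15.5 FPKM in hippocampus and 32.5, 38.8 and 63.4 FPKM in hypothalamus.
Neither Dlgap3 nor Dlgap4 was called, and the Dlgap3 libraries overlapped widely, with a difference of −0.32 (SE 0.42). Dlgap3 ranked below Dlgap1 in every hippocampus library and above it in every hypothalamus library. Its share of the family was 11.4% to 22.6% in hippocampus and 30.7% to 38.3% in hypothalamus, and the share of Dlgap2 was 6.80% to 12.4% and 1.58% to 1.98%.

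SHANK proteins form the deeper layer of the scaffold. Shank1 read 188, 174, 149 and 188 FPKM in hippocampus and 34.1, 57.9 and 71.3 FPKM in hypothalamus. The tissues were well apart, and the difference was 2.03 (SE 0.30). Shank3 read 25.5 to 36.9 FPKM and 9.97 to 16.5 FPKM, a difference of 1.48 (SE 0.22). Shank2 was the lowest of the 32 genes in both tissues, at 1.23 to 3.24 FPKM in hippocampus and 0.294 to 0.667 FPKM in hypothalamus, and its call at 1.80 (SE 0.31) was lost with a pseudocount of 5. All 3 SHANK genes were called in each of the 5 scalings. Shank1 was 82.4% to 87.6% of the family in hippocampus and 76.9% to 81.3% in hypothalamus, so the order Shank1, Shank3, Shank2 was the same in all 7 libraries.

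HOMER proteins cross-link SHANK with metabotropic glutamate and inositol trisphosphate receptors, and Homer1 also gives a short form that is induced by neuronal activity. Homer1 read 34.4, 36.4, 35.1 and 48.6 FPKM in hippocampus and 5.32, 3.61 and 3.05 FPKM in hypothalamus. The groups were far apart, with a difference of 3.46 (SE 0.26), or 11.0-fold. Homer3 read 18.9 to 28.7 FPKM and 7.74 to 9.43 FPKM, with a difference of 1.62 (SE 0.16). Homer2 read 5.63 to 8.18 FPKM and 2.11 to 2.58 FPKM, with a difference of 1.68 (SE 0.14). All 3 HOMER genes were called in every one of the 22 alternatives tried. Homer1 held the largest share of the family in each hippocampus library (50.0% to 63.8%), and Homer3 did in each hypothalamus library (54.5% to 64.6%).
A row does not separate the forms of Homer1. The summed FPKM of 10 immediate early genes, which neuronal activity induces, was 240 in hippocampus replicate 1, between 111 and 144 in replicates 2 to 4 and between 70.9 and 107 in hypothalamus. Of these 10 genes, 5 were called higher in hippocampus, against 14.5% of all symbols. The 10 genes had a median difference of 1.29, and their part in the difference of Homer1 was not tested. Within hippocampus, Homer1 was highest in replicate 4; whether the short form differed was not tested.

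**Figure D3:**
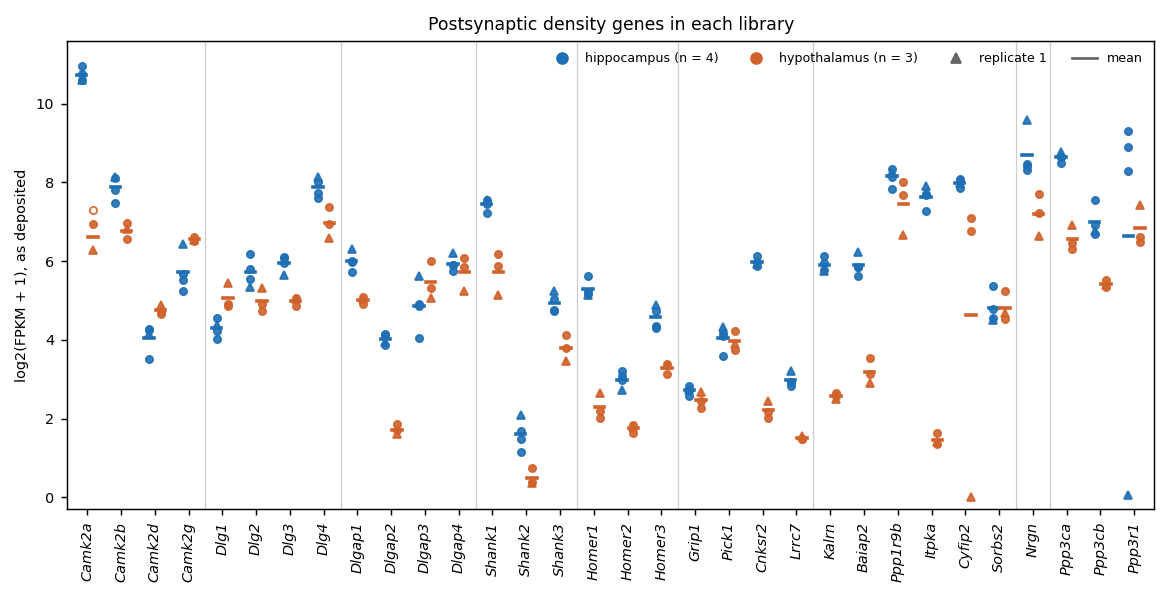
Level of each of the 32 genes in every library (vertical axis, log2 of FPKM + 1 as deposited), grouped by family. Points are libraries, triangles are replicate 1, short lines are means, and the open circle is the Camk2a value with a failed status. The libraries of each tissue form tight groups for most genes, and replicate 1 lies near 0 for Ppp3r1 in hippocampus and at 0 for Cyfip2 in hypothalamus.

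Of the 4 other adaptors with PDZ domains or related modules, 2 were called. Cnksr2, whose product links the scaffold to Ras signalling, read 59.9, 68.7, 57.7 and 62.0 FPKM in hippocampus and 4.46, 3.48 and 3.05 FPKM in hypothalamus. No library came near the other tissue, and the difference of 4.24 (SE 0.17) was 18.9-fold. Lrrc7, which encodes densin, read 6.08 to 8.20 FPKM and 1.81 to 1.97 FPKM, a difference of 1.95 (SE 0.11).
Grip1 and Pick1 encode adaptors that bind AMPA receptor subunits and steer their traffic. Grip1 read 4.94 to 6.10 FPKM in hippocampus and 3.80 to 5.44 FPKM in hypothalamus, and Pick1 read 11.1 to 19.0 FPKM and 12.4 to 17.7 FPKM. Both overlapped as deposited. After rescaling, Grip1 was free of overlap with a difference of 0.56 (SE 0.15), which was 0.13 with overlap when loci were summed, and Pick1 overlapped with a difference of 0.38 (SE 0.21). Neither was called under any of the 5 scalings.

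Among genes that shape the actin of spines, Itpka had the largest difference of the 31. It encodes an inositol trisphosphate kinase that bundles actin, and it read 239, 207, 203 and 154 FPKM in hippocampus and 1.63, 1.58 and 2.10 FPKM in hypothalamus. The tissues were furthest apart here, and the difference was 6.81 (SE 0.16), or 112-fold, and 72.2-fold with FPKM as deposited. Kalrn, which encodes an exchange factor for Rac, read 53.1, 69.1, 54.2 and 60.5 FPKM in hippocampus and 4.61, 4.93 and 5.30 FPKM in hypothalamus, with a difference of 3.76 (SE 0.08).
Baiap2 encodes IRSp53, which bends membranes and binds actin regulators. It read 74.9, 57.0, 56.8 and 48.3 FPKM in hippocampus and 6.48, 7.81 and 10.6 FPKM in hypothalamus, with a difference of 3.08 (SE 0.22). All 3 of these genes kept their call in each alternative that could be computed.

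Ppp1r9b encodes spinophilin, which brings protein phosphatase 1 to the spine. It read 309, 325, 282 and 229 FPKM in hippocampus and 100, 204 and 257 FPKM in hypothalamus, and these values overlapped. After rescaling they were free of overlap and the means differed 2.00-fold (SE 0.40 on the log2 scale), which was at the minimum and was called in 1 of 5 scalings. Ppp1r9b was called in 9 of the 21 alternatives that could be computed. With each library left out its difference ran from 0.62 to 1.26. Sorbs2, which encodes an adaptor of actin and adhesion, read 21.8 to 40.0 FPKM and 22.2 to 36.7 FPKM and had a difference of 0.28 (SE 0.31), which was −0.02 with FPKM as deposited.

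Cyfip2 encodes a subunit of the WAVE complex, which starts actin branches, and read 252, 272, 231 and 263 FPKM in hippocampus. In hypothalamus its highest-mean locus was listed at 0 in replicate 1 and read 108 and 136 FPKM in replicates 2 and 3, while a second locus read 104, 64.0 and 69.2 FPKM. The difference of 4.09 (SE 2.72) at the first locus became 2.03 when the locus highest in replicate 1 was taken and 1.07 with loci summed. Cyfip2 was free of overlap in each case, but the size of its difference depended on the locus read.

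**Figure D4:**
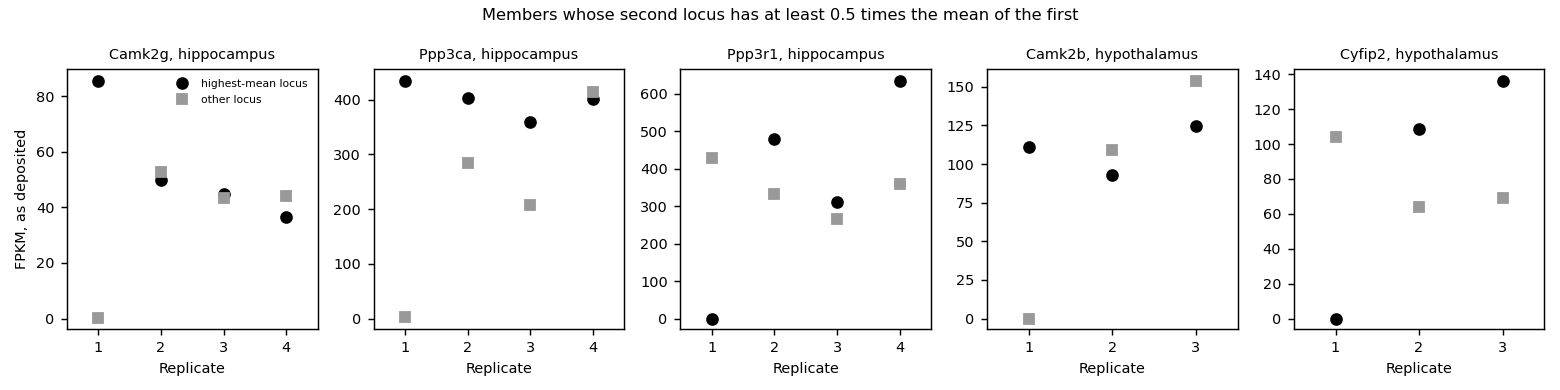
FPKM as deposited (vertical axis) in each replicate, for the genes whose second locus has a mean of at least 0.5 times that of the first. Black circles are the highest-mean locus and grey squares the other locus. In each panel replicate 1 is near 0 at 1 of the loci and highest, or close to it, at the other.

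Nrgn encodes neurogranin, a small postsynaptic protein that holds calmodulin until calcium rises. It read 763, 352, 317 and 338 FPKM in hippocampus and 99.4, 149 and 207 FPKM in hypothalamus. Replicate 1 of hippocampus was far above the others, and without it Nrgn was still called, with a difference of 1.50 in place of 1.80 (SE 0.41).

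Calcineurin is the phosphatase that calcium and calmodulin activate; Ppp3ca and Ppp3cb encode its catalytic subunits and Ppp3r1 its regulatory one. Ppp3ca read 434, 403, 360 and 401 FPKM in hippocampus and 121, 78.6 and 87.0 FPKM in hypothalamus, a difference of 2.38 (SE 0.20). A second hippocampal locus of Ppp3ca read 285, 207 and 414 FPKM in replicates 2 to 4 but 3.30 FPKM in replicate 1, and with loci summed the difference was 2.96. Ppp3cb read 108, 119, 102 and 188 FPKM in hippocampus and 41.4, 39.9 and 44.6 FPKM in hypothalamus, a difference of 1.87 (SE 0.20). The catalytic genes were thus higher in every hippocampus library.
At the highest-mean locus of Ppp3r1, hippocampus replicate 1 read 0.0496 FPKM and the others 479, 312 and 634 FPKM, and the difference of −0.25 (SE 2.57) had an error larger than itself. When the locus highest in replicate 1 was taken, Ppp3r1 was free of overlap with a difference of 1.90 (2.82 with loci summed), and 23 of 31 genes were then called, against 15% of all symbols. Hypothalamus read 171, 88.3 and 97.2 FPKM at its single locus.

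The spread between replicates was set beside that of other symbols. The median SD of log2(FPKM + 1) was 0.24 over 32 genes in hippocampus and 0.28 over 30 genes of at least 1 FPKM in hypothalamus, and over all symbols of at least 1 FPKM it was 0.23 and 0.25. Without replicate 1 of hypothalamus the median SD there was 0.141 for the genes and 0.132 for all symbols, and with loci summed it was 0.313 and 0.243. An SD above 1 was seen for 1 gene in each tissue, Ppp3r1 in hippocampus and Cyfip2 in hypothalamus, against 2.15% and 1.52% of all symbols.
In hypothalamus, replicate 3 was the highest library for 19 of the 30 genes, against 35.4% of all symbols. Replicate 2 was the lowest for 14 of the 30, against 32.4% of all symbols. Replicate 1 was the lowest for 11, against 36.0%, and these 11 (Dlg4, Dlgap2, Dlgap3, Dlgap4, Shank1, Shank3, Kalrn, Baiap2, Nrgn, Ppp1r9b and Cyfip2) were each highest in replicate 3, an order that 24.6% of all symbols had. In hippocampus, replicate 1 was highest for 16 of 32 genes, against 30.5% of all symbols, and replicate 3 for 0, against 18.3%. Summed FPKM of the 31 genes was 1200, 1365 and 1665 in hypothalamus replicates 1 to 3, and 3629, 3580, 3051 and 3454 in hippocampus replicates 1 to 4. These sums, and the order of Cyfip2 above, take 1 locus per gene. At that locus Cyfip2 read 0 FPKM in hypothalamus replicate 1, against 104 FPKM at its other locus. Likewise, Ppp3r1 read 0.0496 FPKM in hippocampus replicate 1, against 430 FPKM at its other locus. In the same hypothalamus libraries, 5 genes of the adjoining striatum summed to 58.7, 120 and 115 FPKM and 5 of the adjoining thalamus to 63.1, 37.6 and 24.8 FPKM, and their part in the order was not tested.

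Genes of neighbouring parts of the synapse were read from lists. Of 29 other postsynaptic density genes compared, 15 were called towards hippocampus and 1 towards hypothalamus, where 14.5% and 13.4% of all symbols were. The median difference of the 29 genes was 1.16. The extremes of that list were Grasp at 3.44 and Itpkb at −1.05, the latter a kinase gene of the same family as Itpka.
With FPKM as deposited, that list had 13 of 29 genes called higher in hippocampus and 6 in hypothalamus, where 8.64% and 16.9% of all symbols were. Of 15 genes of calmodulin signalling, 9 were called higher in hippocampus and 2 in hypothalamus, from Pcp4 at −4.26, which like Nrgn encodes a calmodulin-binding protein, to Camkv at 2.57. The mean of Pcp4 was 36.4 ± 21.1 FPKM (SD, n = 4) in hippocampus, against 781 ± 25.7 FPKM (SD, n = 3) in hypothalamus.

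Of 9 ionotropic glutamate receptor subunits, 4 were called higher in hippocampus and 2 in hypothalamus, and the median was 0.69. Grin1, which encodes the obligatory NMDA receptor subunit, overlapped, with a difference of −0.01, which was −0.31 as deposited and 0.01 when the locus highest in replicate 1 was taken, while Grin2a was at 3.19. The scaffold and kinase genes therefore stood beside receptor subunits with differences in both directions. Of 11 genes of the inhibitory postsynapse, 8 were called higher in hippocampus and 0 in hypothalamus (median 1.35), and of 14 presynaptic genes the counts were 8 and 0 (median 1.79). Over all symbols compared, 14.5% were called higher in hippocampus and 13.4% in hypothalamus. With loci summed the inhibitory and presynaptic medians were 1.08 and 1.63, and with the locus highest in replicate 1 they were 1.21 and 1.48. As deposited, the counts towards hippocampus and hypothalamus were 2 and 2 for the glutamate receptor subunits, 5 and 0 for the inhibitory postsynapse and 7 and 0 for the presynaptic genes. The shares of all symbols were then 8.64% and 16.9%.

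Markers of cell types were read in the same way. All 6 genes of telencephalic excitatory neurons were called higher in hippocampus, with a median of 4.46, and the part of this cell type in the differences was not tested. The 16 pan-neuronal genes had a median of −0.07 (0.67 with loci summed), with 3 called higher in hippocampus and 4 in hypothalamus. Centred on this list, 20 of the 31 postsynaptic density genes were called higher in hippocampus, with a median of 1.36, against 12.3% of all symbols, with a median of 0.01. This centring read the highest-mean locus of each gene. The mean log2(FPKM + 1) of the list was 6.53 in hippocampus replicate 1 and 6.94 to 7.19 in replicates 2 to 4. Centring therefore scaled replicate 1 up against these, and a centring with loci summed is not given here. The medians of the astrocyte, oligodendrocyte, microglia and endothelial lists were −0.35, 0.11, −0.30 and 0.40. Towards hippocampus, 1 astrocyte gene (Slc1a2, at 1.89) and 2 of 5 endothelial genes were called, and towards hypothalamus 2 astrocyte genes (Aqp4 at −1.19 and Aldh1l1 at −1.30) and 1 oligodendrocyte gene (Mobp at −1.16). Genes of neurons with other transmitters had a median of −2.06, with all 6 higher in hypothalamus without overlap and 4 of them called. The 6 choroid plexus genes had a median of 3.02 and all overlapped: their summed FPKM was 4756, 35.1, 5980 and 2084 in hippocampus replicates 1 to 4 and 35.4 to 71.3 in hypothalamus. Replicate 2 of hippocampus stood apart in that sum, and without it 22 of the 31 postsynaptic density genes were called, against 14.8% of all symbols.

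**Figure D5:**
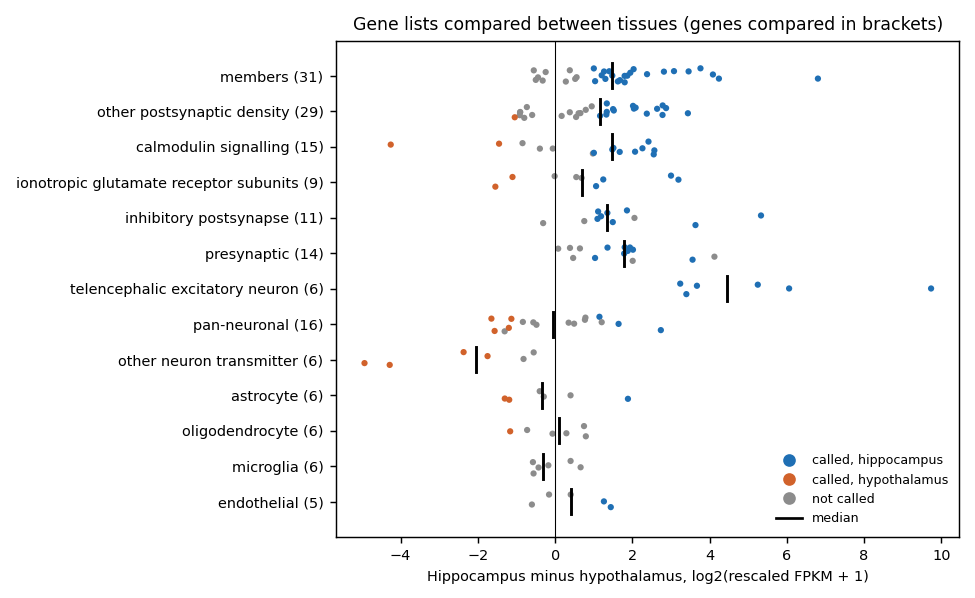
Difference between tissues of each gene (horizontal axis, log2 of rescaled FPKM + 1, hippocampus minus hypothalamus) in the 31 postsynaptic density genes (members) and 12 lists. Points are genes, coloured by call, and black lines are medians. The members have a median of 1.48, the telencephalic excitatory neuron list lies further right at 4.46, and the pan-neuronal list is centred near 0 at −0.07.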

How the data were processed

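The authors deposited FPKM per locus, in a separate table for each tissue, and a status word follows each value. The submitters' processing notes name TopHat, TopHat2, Bowtie, Bowtie2, Cufflinks, Cuffdiff and the rat build rn5, without versions or roles. The scaling of the deposited FPKM and any use of strand are not given in the sources used here, so reads of overlapping genes may be shared. A locus was left out if any library had another status than OK (86 in hippocampus, 24 in hypothalamus). Symbols joined the tables, 15805 in both, and those whose mean reached 1 FPKM in either tissue were compared. Calculations used Python 3.11.15, numpy 2.4.6 and pandas 2.3.3, and the calling rule was tested on simulated data. Depth is unknown, and no counting interval was computed. Low values of replicates 2 to 4 of hippocampus stood in common steps, with a ratio of 1.49 between replicates 2 and 3, at too few loci to recover fragments. Genes named are all 34 listed genes, the extremes of the other lists and genes a result turns on; Slc17a7, Slc1a2, Aqp4, Aldh1l1, Mobp, Grin1 and Grin2a were chosen after their values were seen. The genes and lists were chosen with earlier results of these data known. Alternatives covered scaling, pseudocount, filters, locus choice, each library left out and pairing by number.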

Additional observations from a re-analysis of the deposited data

Results flagged for a closer look

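Of 53 values measured in the 4 hippocampus libraries (32 gene levels and 21 shares of a family), 2 had a library that stood apart, where chance gives about 2.65. The measure was Dixon's ratio, in which the gap from the extreme library to its neighbour is taken over the range of all 4. Nrgn was highest in replicate 1, at 763 FPKM against 317 to 352 FPKM in the others, a ratio of 0.920. Homer1 was highest in replicate 4, at 48.6 FPKM against 34.4 to 36.4 FPKM in the others, a ratio of 0.859. Both genes have 1 locus in hippocampus, and both were called higher in hippocampus with each library left out.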

How the results depend on the processing

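The count of 22 genes called higher in hippocampus ranged from 21 to 22 with each library left out in turn, against 13.8% to 16.8% of all symbols. The genes changed, however. Ppp1r9b was lost without hippocampus replicate 1, 2 or 3 or hypothalamus replicate 1. Dlg2 was lost without hippocampus replicate 4 or hypothalamus replicate 2 or 3. Ppp3r1 was gained with each hippocampus library left out. Of the 22 genes, 15 were called in every alternative that could be computed. The count was 21 without replicate 1 of both tissues, of which 20 were among the 22, against 18% of all symbols, and 14 of 20 genes with a single locus in both tables, against 15.7%. With FPKM as deposited, all symbols called higher in hippocampus fell from 1560 to 928, those called higher in hypothalamus went from 1439 to 1819, and the median of the genes from 1.48 to 1.10; with single-locus symbols it was 1.86. Without a fold minimum the counts of all symbols were 3023 in hippocampus and 2621 in hypothalamus, and 1 of the genes, Camk2d, was counted towards hypothalamus. The median SD of the genes in hypothalamus was 0.276, and it ranged from 0.141 without replicate 1, the library that moved it most, to 0.259 without replicate 2. The replicate block, taking differences within same-numbered pairs of replicates 1 to 3, gave 22 genes, 21 of them among the 22, with Dlg2 lost and Ppp3r1 gained, against 14.3% of all symbols; the numbers were not treated as pairs, since same-numbered libraries of the 2 tissues had correlations of deviations of −0.15, −0.19 and −0.26 over 10736 symbols. Over the other pairings the correlations ran from −0.07 to 0.39, the highest for hippocampus replicate 3 with hypothalamus replicate 2. Whether any of these libraries shared a rat was not tested. The locus highest in replicate 1 and the values with a failed status were alternatives chosen after seeing the data. FPKM gives no depth, and the smallest values, such as those of Shank2, are limited by it to an unknown degree.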
